A study of Mus musculus with 305 samples.

Results

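The genes of 10 zinc-dependent histone deacetylases were followed through 6 regions of the mouse brain reward circuitry. Members were found by symbol: rows of the count table whose Ensembl identifier carries the symbol Hdac1, Hdac2, Hdac3, Hdac4, Hdac5, Hdac6, Hdac7, Hdac8, Hdac9 or Hdac11 in the GENCODE M21 annotation. All 10 symbols matched 1 row each, so the members are 10 of 52636 genes in the table. Hdac10 was not among the listed symbols and is not described here. All 10 passed the filter on low counts in every fit. The animals were 51 wild-type male mice that had self-administered heroin, an opioid agonist, or saline into a vein for 15 d. At 24 h of withdrawal, 8 that had taken saline (group S24) and 11 that had taken heroin (group H24) were studied. The remaining mice stayed in withdrawal for 30 d, were challenged with saline or heroin and were tested for drug seeking over 2 h. They form 4 groups of 8, named by the drug taken and then the drug of the challenge: SS, SH, HS and HH. All groups had self-administration sessions, the controls with saline by the same route; strain and age are not given in the labels. In this field PFC stands for prefrontal cortex, vHPC for ventral hippocampus, BLA for basolateral amygdala, NAc and dStri for nucleus accumbens and dorsal striatum, and VTA for the ventral tegmental area.

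Histone deacetylases remove acetyl groups from lysines of histones and other proteins, and deacetylated histones are a mark of chromatin that is less accessible to transcription. Class I enzymes (Hdac1, Hdac2, Hdac3 and Hdac8) are mainly nuclear, and all but Hdac8 work inside corepressor complexes such as Sin3, NuRD, CoREST and NCoR. Class IIa members (Hdac4, Hdac5, Hdac7 and Hdac9) have weak catalytic activity of their own, bind MEF2 transcription factors and leave the nucleus when calcium-dependent kinases phosphorylate them and 14-3-3 proteins bind. Hdac6, of class IIb, is a cytoplasmic tubulin deacetylase, and Hdac11 is the sole class IV member and removes long fatty acyl groups. In reward regions these enzymes are studied because drugs of abuse change histone acetylation and because Hdac5 and Hdac4 can restrain drug responses in the striatum.

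Promoter windows of 300 bases, from 250 before to 50 after the transcription start (RefSeq, build GRCm38.p6), were at hand for 8 members. The 5 windows below belong to the 4 members with a window whose levels ranged most over regions: Hdac4 and Hdac9, both high in vHPC and PFC and low in NAc and dStri, and Hdac8 and Hdac11, both highest in VTA. They are printed 5′ to 3′ on the strand of the gene. Capitals mark the GC box, spelled GGGCGG, wherever it stood on either strand of the window. They also mark the TATA box, spelled TATAAA, searched in the same way.
Hdac4, chr1:92180292-92180591, minus strand: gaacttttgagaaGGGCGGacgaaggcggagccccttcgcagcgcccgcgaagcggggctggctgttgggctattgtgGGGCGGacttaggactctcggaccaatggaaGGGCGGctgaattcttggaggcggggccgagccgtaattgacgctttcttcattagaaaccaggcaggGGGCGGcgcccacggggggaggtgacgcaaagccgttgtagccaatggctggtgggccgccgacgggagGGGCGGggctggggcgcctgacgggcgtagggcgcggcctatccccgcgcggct
Hdac9, upstream window, chr12:34917046-34917345, minus strand: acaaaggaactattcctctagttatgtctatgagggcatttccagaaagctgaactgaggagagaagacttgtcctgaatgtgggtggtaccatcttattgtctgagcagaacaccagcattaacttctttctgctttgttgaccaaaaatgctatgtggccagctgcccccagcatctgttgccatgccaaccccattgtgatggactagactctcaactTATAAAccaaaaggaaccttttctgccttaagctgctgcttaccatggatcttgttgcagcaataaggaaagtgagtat
Hdac9, downstream window, chr12:34528840-34529139, minus strand: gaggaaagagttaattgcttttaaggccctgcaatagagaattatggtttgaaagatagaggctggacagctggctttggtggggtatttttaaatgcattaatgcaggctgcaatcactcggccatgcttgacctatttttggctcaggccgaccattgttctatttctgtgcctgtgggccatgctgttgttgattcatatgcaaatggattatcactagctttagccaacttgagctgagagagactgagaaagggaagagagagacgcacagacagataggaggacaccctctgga
Hdac8, chrX:102505109-102505408, minus strand: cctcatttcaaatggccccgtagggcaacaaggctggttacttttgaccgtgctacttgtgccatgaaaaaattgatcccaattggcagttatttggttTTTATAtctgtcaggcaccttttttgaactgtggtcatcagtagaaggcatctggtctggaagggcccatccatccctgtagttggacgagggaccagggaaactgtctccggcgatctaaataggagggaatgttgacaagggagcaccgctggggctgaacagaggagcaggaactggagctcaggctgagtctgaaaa
Hdac11, chr6:91156565-91156864, plus strand: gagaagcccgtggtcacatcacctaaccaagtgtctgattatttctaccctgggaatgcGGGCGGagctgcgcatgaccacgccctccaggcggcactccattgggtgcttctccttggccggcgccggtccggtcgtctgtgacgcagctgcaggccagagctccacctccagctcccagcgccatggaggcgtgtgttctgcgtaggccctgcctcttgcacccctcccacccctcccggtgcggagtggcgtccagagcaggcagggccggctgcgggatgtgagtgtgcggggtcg

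Members with like regional profiles had unlike windows. The Hdac4 window held 5 GC boxes and 32 CpG dinucleotides, more CpG than 90.5% of the 32851 windows in the table. Neither Hdac9 window held a GC box. Its upstream window had 0 CpG and a TATAAA beginning 29 bases before the start, and its downstream window had 3 CpG. In the VTA pair, Hdac11 had 1 GC box and 22 CpG, and Hdac8 had no GC box, 6 CpG and a TTTATA far upstream of the start. Over all windows the median was 7 CpG, 35.7% held a GC box on either strand and 13.6% a TATA box. Such matches describe letters and are not sites shown to be used. CpG counts in the other members' windows were 36 for Hdac2, 20 for Hdac6, 18 for Hdac5 and 5 to 35 over the 4 windows of Hdac7.

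The libraries used held 19.31 to 61.35 M counts (M, 1e6; median 31.47 M). The VTA library of HH mouse 7, with 0.89 M, was left out. S24 mouse 37 has no BLA value here, so that group had 7 libraries in BLA. Levels are CPM, counts over the effective library size in M, and every member was counted in every library. By their medians, markers of the labelled regions were at the level of their names. Summed dopamine neuron markers had a median of 2956 CPM in VTA and 16.7 to 38.8 CPM elsewhere. Striatal projection neuron markers had 9315 CPM in dStri and 5350 CPM in NAc against 182 to 959 CPM elsewhere. Single libraries varied widely. Dopamine neuron markers ran from 228 to 6055 CPM in VTA and reached 313 CPM in BLA. Striatal markers reached 2301 CPM in BLA, and choroid plexus markers 10703 CPM in BLA and 15070.5 CPM in vHPC. No list was particular to BLA. Libraries of bulk tissue cannot tell fewer cells of a type from less RNA per cell. The labels give each library a mouse, so p-values of tests within a region measure the spread between mice. Tests between regions kept the mouse as a block. Their p-values measure the spread of libraries left after differences between mice are removed.

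Which histone deacetylase genes differ between the regions was asked in the 16 saline mice (S24 and SS, 95 libraries), with the mouse kept as a block. Each member had its own order of regions. Hdac9 and Hdac4 were high in vHPC, PFC and BLA and low in the striatal regions, Hdac11, Hdac8 and Hdac5 were highest in VTA, Hdac3 had its highest mean there, and Hdac2 was highest in dStri and lowest in VTA. By edgeR's quasi-likelihood test with Benjamini-Hochberg adjustment, 68% of the 150 member-by-pair comparisons of regions passed an adjusted p of 0.05, where the background over all genes was 55.5%. Against the mean of the other 5 regions, 41 of 60 comparisons passed, with a background of 56.8%.

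**Figure D1:**
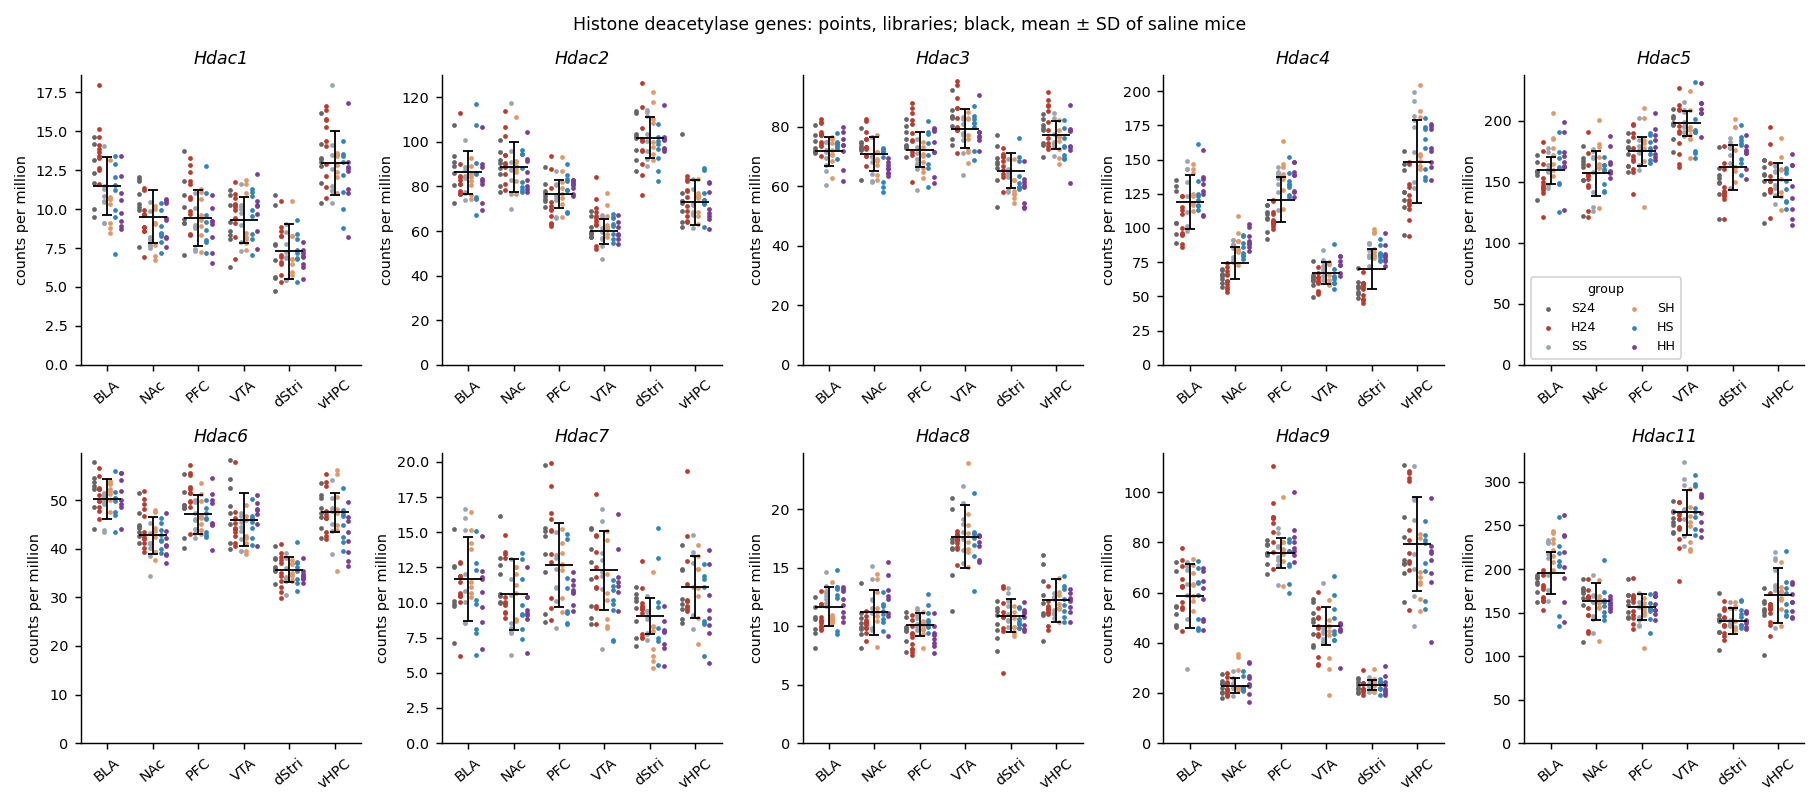
CPM (y axis, from 0) of the 10 genes in each region (x axis) for all libraries used, 1 point per library and 1 colour per treatment group; black bars are the mean ± SD of the saline mice (15 libraries in BLA, 16 elsewhere). Hdac9 at 23.0 CPM in NAc and 79.2 CPM in vHPC shows the widest separation of regions, and in dStri every Hdac4 point of the 24 h groups (S24, H24; at most 70.5 CPM) lies under those of the 30 d groups (at least 71.9 CPM).

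Among the class I genes, Hdac2 had the widest range in CPM. On the log2 scale the highest and lowest regions of Hdac1 (0.82) and Hdac8 (0.81) lay slightly farther apart than those of Hdac2 (0.78). In dStri it ran from 86.7 to 114.2 CPM with a median of 102.1 in the 16 saline mice, and in VTA from 47.3 to 69.1 CPM with a median of 59.2, so the regions did not overlap. Hdac2 is the class I enzyme most often tied to synaptic gene repression and memory. The log2 difference between dStri and VTA was 0.78 ± 0.057 (SE, edgeR adjusted p = 6.81e-22), and dStri was the higher in 50 of 50 mice of all groups with both libraries. Between them came NAc at 88.7 ± 11.0 CPM (SD, n = 16), BLA at 86.3 ± 9.60 (n = 15), PFC at 76.5 ± 6.32 and vHPC at 72.9 ± 10.1 (both n = 16). Neighbours in this order did not pass the test between NAc and BLA (edgeR adjusted p = 0.378) or between PFC and vHPC (0.290).

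Hdac1, the close relative of Hdac2 in the same complexes, followed another order. It ran from 10.4 to 18.0 CPM (median 12.9) in vHPC and from 4.72 to 10.9 CPM (median 7.08) in dStri. These ranges overlap by little. The log2 difference was 0.82 ± 0.087 (edgeR adjusted p = 7.67e-14), with vHPC the higher in 50 of 51 mice. BLA held 11.5 ± 1.84 CPM, and NAc, PFC and VTA lay within 9.30 to 9.51 CPM and did not pass the test against each other. dStri therefore held the highest Hdac2 and the lowest Hdac1 of the 6 regions in every one of the 6 treatment groups.

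Hdac3, the catalytic subunit of NCoR complexes, varied least. Its saline means ran from 65.3 ± 5.91 CPM in dStri to 79.5 ± 6.63 in VTA, a log2 difference of 0.28 ± 0.039 (edgeR adjusted p = 1.30e-09), with VTA the higher in 49 of 50 mice. VTA against vHPC, the next highest, did not pass (0.05 ± 0.039, edgeR adjusted p = 0.274), and VTA was the higher in 27 of 50 mice. The 6 Hdac3 differences from the mean of the other 5 regions spanned a range of 0.33 on the log2 scale. That range was narrower than that of all but 5.46% of genes, and the median gene had a range of 1.18. A range so taken is wider than the difference between the highest and lowest region, here 0.28. Hdac8, which acts outside the large corepressor complexes, stood at 17.7 ± 2.68 CPM in VTA (11.3 to 22.0, median 17.5) and at 10.1 ± 0.986 in PFC (7.81 to 11.6, median 10.0). The lowest VTA library overlapped PFC. The log2 difference was 0.81 ± 0.070 (edgeR adjusted p = 4.46e-18), with VTA the higher in 50 of 50 mice. In the other 4 regions Hdac8 lay between 10.9 and 12.2 CPM, and no neighbours in that stretch passed the test.

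Of the class IIa genes, Hdac9 separated the regions most. In vHPC it ran from 46.8 to 111.004 CPM (median 74.2), in PFC from 63.1 to 85.7 (median 75.7) and in BLA from 29.4 to 72.3 (median 59.1). In NAc it ran from 17.8 to 28.6 CPM (median 23.3) and in dStri from 19.8 to 26.5 (median 23.2). Every saline library of vHPC, PFC and BLA lay above every saline library of both striatal regions. The VTA mean, at 46.6 ± 7.50 CPM, lay between those of the 2 groups of regions. Its libraries (38.4 to 63.9, median 44.4) lay above the striatal ones and overlapped those of BLA, vHPC and PFC. The log2 difference between vHPC and NAc was 1.75 ± 0.079 (edgeR adjusted p = 2.58e-34), the same direction in 51 of 51 mice. Neither vHPC and PFC (edgeR adjusted p = 0.698) nor dStri and NAc (0.886) passed the test. The regional range of Hdac9 was 2.10 on the log2 scale, wider than 74.9% of genes and the widest of the members.

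Hdac4, which can enter the nucleus and repress synaptic genes, had 148.3 ± 30.3 CPM in vHPC, 120.6 ± 16.5 in PFC and 119.2 ± 19.9 in BLA. It had 74.4 ± 11.6 CPM in NAc, 69.7 ± 14.5 in dStri and 67.03 ± 8.30 in VTA. The lowest vHPC library, at 94.7 CPM, lay above the highest NAc, dStri and VTA libraries at 91.6, 89.01 and 83.99 CPM. The log2 difference between vHPC and VTA was 1.12 ± 0.061 (edgeR adjusted p = 3.47e-29), with vHPC the higher in 50 of 50 mice. PFC against BLA, NAc against dStri and dStri against VTA did not pass the test. NAc against VTA did pass, with NAc the higher by 0.15 ± 0.061 on the log2 scale (edgeR adjusted p = 0.0303).

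Hdac5 is a class IIa enzyme known for its regulation by cocaine and stress. On the log2 scale it had the smallest difference between highest and lowest region in its class (0.40, beside 0.47 for Hdac7). Its means ran from 151.5 ± 14.2 CPM in vHPC to 198 ± 10.4 in VTA, a log2 difference of 0.40 ± 0.046 (edgeR adjusted p = 1.58e-12) that held in 50 of 50 mice. VTA against PFC, the next highest at 175 ± 11.8 CPM, was the only neighbouring pair to pass. Hdac7, best known from the vascular endothelium and from lymphocytes, was among the lowest members and the most variable. It had 12.7 ± 3.00 CPM in PFC (8.20 to 19.8, median 12.8) and 9.05 ± 1.29 in dStri (6.92 to 11.1, median 9.19), and the 2 ranges overlap. That difference was 0.47 ± 0.112 on the log2 scale (edgeR adjusted p = 0.000176), with PFC the higher in 45 of 51 mice, and no neighbouring pair passed. Exons of Hdac7 share no same-strand bases with another gene, whereas 1.26% of Hdac5 exon bases are shared with Mir8101.

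Hdac6, the tubulin deacetylase, was highest in BLA (50.2 ± 4.07 CPM) and lowest in dStri (35.7 ± 2.61 CPM). The saline ranges, 43.5 to 57.8 (median 50.7) and 30.5 to 40.5 (median 35.9), did not overlap. The log2 difference was 0.47 ± 0.045 (edgeR adjusted p = 6.26e-16), the same direction in 50 of 50 mice. BLA did not pass the test against vHPC (edgeR adjusted p = 0.170) or PFC (0.112). Hdac11 stood at 264.96 ± 25.5 CPM in VTA, 196 ± 23.9 in BLA, 170 ± 31.5 in vHPC, 163 ± 21.0 in NAc, 156.05 ± 14.9 in PFC and 140 ± 14.9 in dStri. The VTA libraries ran from 226.4 to 322 CPM (median 262.5) and those of dStri from 106.995 to 172 (median 138.8), with no overlap. Their log2 difference was 0.91 ± 0.062 (edgeR adjusted p = 1.28e-23), with VTA the higher in 50 of 50 mice. Of its neighbouring pairs, vHPC against NAc and NAc against PFC did not pass.

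Read by region, dStri held the lowest mean of 5 members: Hdac1, Hdac3, Hdac6, Hdac7 and Hdac11. There 8 of 10 members fell below the mean of the other 5 regions (background 30.9% of genes lower) and only Hdac2 rose above it (background 31.7% higher), with a median member difference of -0.36 on the log2 scale against 0.0089 over all genes. In BLA 6 were higher and 1 lower (background 24.3% and 20.3%), in NAc 1 and 4 (29.5% and 25.8%), and in PFC 5 and 2 (27.9% and 26.2%). VTA had 4 higher, namely Hdac3, Hdac5, Hdac8 and Hdac11, and 2 lower, Hdac2 and Hdac4 (34.8% and 37.5%). In vHPC 5 were higher and 2 lower (26.4% and 25.4%).

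**Figure D2:**
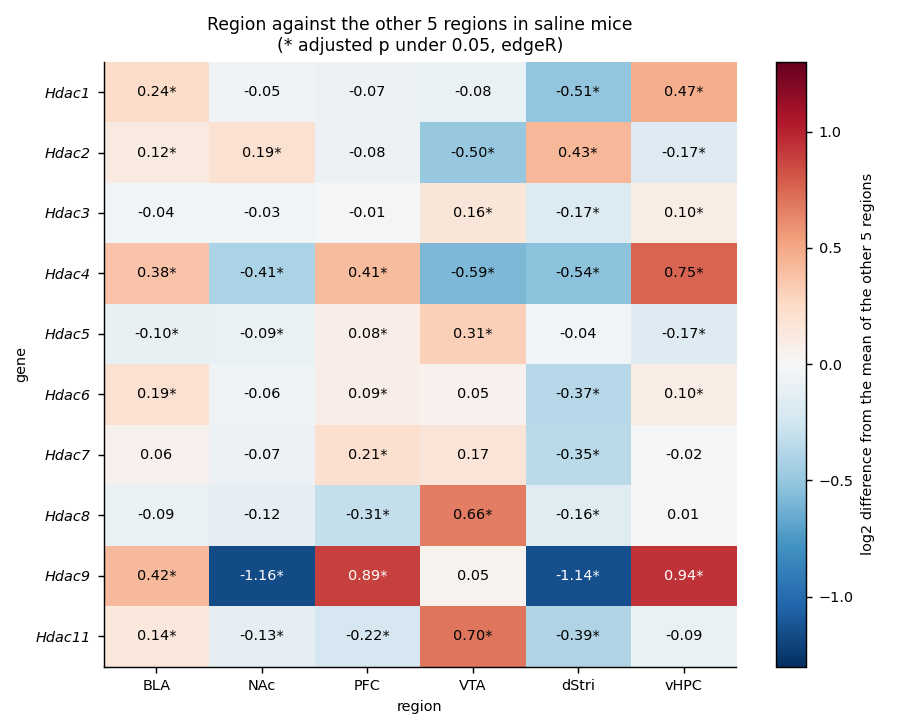
Log2 difference (colour and printed value) of each gene (rows) in each region (columns) from the mean of the other 5 regions in saline mice, with an asterisk where the edgeR adjusted p was under 0.05. Hdac9 spans from -1.16 in NAc to 0.94 in vHPC, and the dStri column is negative for all genes but Hdac2.

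Cell type markers matched these profiles only in part, and their part in them was not tested. The 10 markers of cortical and hippocampal excitatory neurons summed to a median of 3337 CPM in PFC (2503 to 4860), 3170 in vHPC (1690 to 4975) and 2631 in BLA (1654 to 4192). They summed to 809 CPM in NAc, 735 in dStri and 196 in VTA. In the saline mice Hdac4 had its lowest mean in VTA, where these markers were lowest. That rank was not firm, since dStri against VTA did not pass the test for Hdac4 (edgeR adjusted p = 0.541). VTA held the lowest Hdac4 mean in 4 of 6 treatment groups, and dStri was lower than VTA in S24 and H24 mice. Hdac9 in VTA, at 46.6 CPM in saline mice, lay above both striatal regions. The 12 oligodendrocyte markers summed to a median of 15568 CPM in VTA and 2121 to 4692 CPM elsewhere, and VTA was the region with the highest Hdac11. Outside VTA the orders differed. These markers had 4692 CPM in NAc and 4659 in dStri against 2978 in BLA. Hdac11 had 163 CPM in NAc and 140 in dStri against 196 in BLA in saline mice. Relations within a region were taken after the mean of each treatment group was removed from both the level and the score, the mean log2 CPM of the markers. Within VTA, Hdac11 was lower in libraries with more oligodendrocyte marker RNA (Pearson r = -0.42, permutation p = 0.00257, adjusted 0.00771; Spearman rho = -0.42, permutation p = 0.00236; 50 libraries). The Pearson r was -0.44 without the 2 farthest libraries and -0.43 with the group means kept. It was -0.31, -0.64 and -0.53 within 3 sets of sample codes. Only the names of BLA libraries carry the number of the set, and the libraries of other regions were assigned to it by mouse. In the other regions the r of Hdac11 was -0.24 in BLA, -0.23 in dStri, -0.21 in vHPC, 0.13 in NAc and 0.19 in PFC. None of these passed after adjustment. The marker relations were picked after values were seen, and 24 were computed.

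Within PFC, Hdac9 rose with the excitatory marker score (Pearson r = 0.58, permutation p = 3.00e-05, adjusted 0.000300; Spearman rho = 0.57, permutation p = 2.00e-05; 51 libraries), with r of 0.59 without the 2 farthest libraries and 0.69, 0.36 and 0.64 in the 3 code sets. Within NAc the Pearson r of Hdac9 was 0.57 overall (permutation p = 5.00e-05, adjusted 0.000300; Spearman rho = 0.43, permutation p = 0.00184; r = 0.52 without the 2 farthest) but -0.09 in the code set of the 24 h mice, so that relation did not hold in every set. Hdac4 followed the same score within the groups of BLA (Pearson r = 0.58, permutation p = 2.00e-05, adjusted 0.000300; Spearman rho = 0.62, permutation p = 1.00e-05, the smallest that 100000 permutations give), with r of 0.57 without the 2 farthest and 0.46, 0.87 and 0.58 in the sets. In vHPC neither Hdac9 (r = -0.24, permutation p = 0.0962; rho = -0.22, permutation p = 0.124) nor Hdac4 (r = 0.24, permutation p = 0.0839; rho = 0.26, permutation p = 0.0656) passed. Hdac7 rose with endothelial and mural cell markers in BLA (r = 0.56, permutation p = 4.00e-05, adjusted 0.000300; rho = 0.53, permutation p = 5.00e-05), with r of 0.49 without the 2 farthest and 0.53, 0.57 and 0.63 in the sets. In none of the other 5 regions did it pass after adjustment. By Pearson r, Hdac4 also rose with the excitatory score in PFC (0.54, adjusted permutation p = 0.000480), dStri (0.47, 0.00256), NAc (0.46, 0.00291) and VTA (0.42, 0.00816). Its adjusted permutation p by Spearman rho was 0.0746 in dStri and 0.0961 in VTA. Without the 2 farthest libraries the r of Hdac4 was 0.39 in PFC, 0.37 in dStri, 0.49 in NAc and 0.23 in VTA. In code set 2 it was -0.26 in dStri and 0.10 in VTA. Hdac9 did not pass by Pearson r in VTA (0.31), dStri (0.13) or BLA (0.001). Its rho of 0.37 in VTA did pass (adjusted permutation p = 0.0253). With the group means kept, a setting chosen after seeing the data, r was 0.24 for Hdac4 in BLA, so the BLA relation rests on their removal. For Hdac4 r was then 0.41 in NAc, 0.40 in VTA, 0.35 in PFC and 0.24 in dStri. In the same setting r was 0.55 and 0.60 for Hdac9 in PFC and NAc, 0.48 for Hdac7 in BLA, and -0.14 and -0.06 for Hdac9 and Hdac4 in vHPC.

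Levels of different members were compared per kilobase of exon. Over the 95 saline libraries Hdac11 had 47.2 ± 12.1 CPM per kb (SD), or 36.7% of the summed level of the 10 genes. Hdac5 (19.1 ± 2.40 CPM per kb), Hdac2 (18.1 ± 3.56) and Hdac3 (18.0 ± 1.78) followed and lay within each other's spread. Next came Hdac6 at 7.71 ± 1.05, Hdac4 at 6.30 ± 2.27, Hdac9 at 3.48 ± 1.69, Hdac1 at 2.90 ± 0.726, Hdac8 at 2.54 ± 0.635 and Hdac7 at 1.66 ± 0.407 CPM per kb. The Hdac11 share was 46.5% ± 2.46 in VTA and 32.9% ± 1.90 in PFC (SD, n = 16 each). Summed over the 10 genes the level was 126.9 ± 13.8 CPM per kb, with 147.9 ± 7.52 in VTA the highest region. The length counts every annotated exon once, so a member whose main transcript is short is understated. With the longest transcript as the length, Hdac4 (12.3 CPM per kb) passed Hdac6 (8.90) and Hdac8 (5.43) passed Hdac1 (4.90), while Hdac11 kept the highest level (68.4). Hdac5 (30.9 ± 3.90), Hdac2 (24.9 ± 4.90) and Hdac3 (20.3 ± 2.01) then lay farther apart. Single regions differed too. Per kb of exon, Hdac5 and Hdac2 had 22.6 ± 1.18 and 13.4 ± 1.25 in VTA, but 18.4 ± 2.11 and 22.8 ± 2.08 in dStri.

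**Figure D3:**
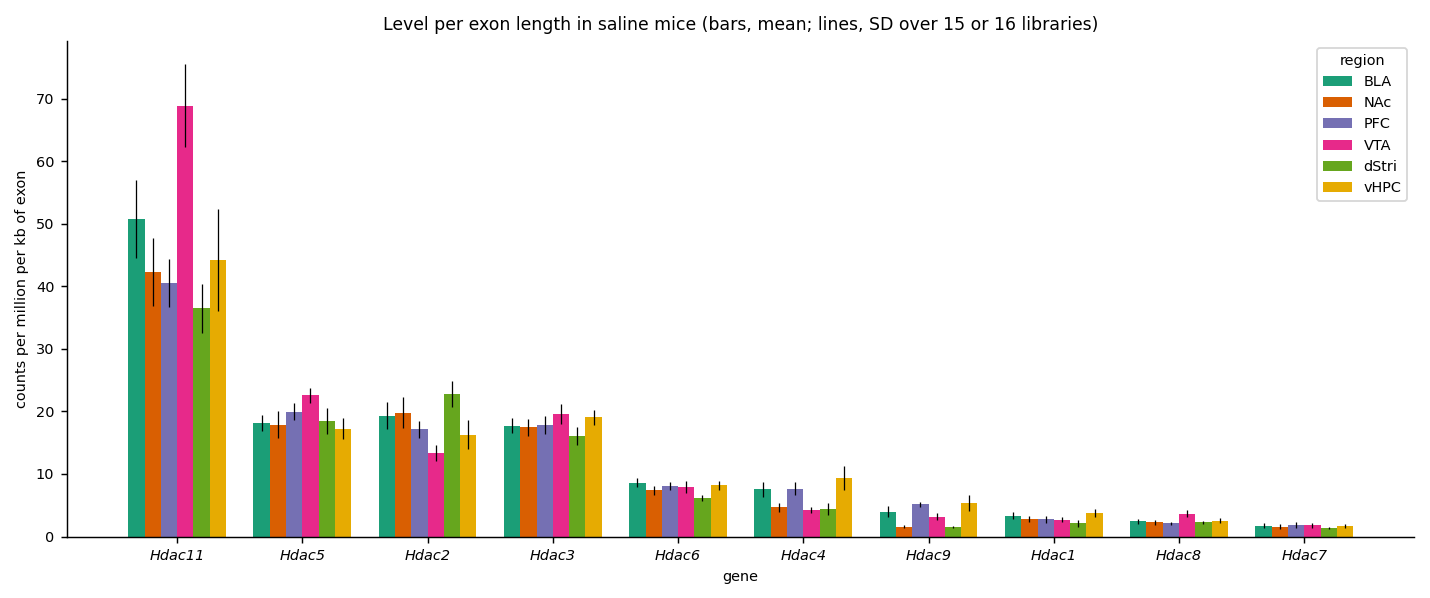
Mean CPM per kb of exon (bars, from 0) with SD (lines) of each gene in the 6 regions of saline mice, genes ordered by their mean. Hdac11 is the highest bar in each region, from VTA at 68.8 CPM per kb downward.

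Genes whose levels most resembled those of the members over all libraries used were named by Pearson r across libraries, which share mice, regions and depth, so r is a description. Hdac9 was closest to Dnajc6 (r = 0.95) and Gabbr2 (0.95), Hdac2 to Dek (0.90) and Tomm20 (0.88), Hdac4 to Tcf4 (0.90) and Unc5a (0.89), and Hdac11 to Tmem130 (0.90) and Magee1 (0.89). The remaining closest genes were Selenop (0.81) and Hsdl2 (0.81) for Hdac8, Slc39a6 (0.80) and Plxna3 (0.79) for Hdac6, and Tnk2 (0.77) and Evi5l (0.75) for Hdac5. For Hdac1 they were Arhgef26 (0.76) and Dlg5 (0.76), for Hdac3 Fam214b (0.71) and Tubgcp2 (0.70), and for Hdac7 Tle2 (0.68) and Arhgef1 (0.68). Among the members themselves the highest r were 0.71 for Hdac4 with Hdac9, 0.63 for Hdac6 with Hdac9 and 0.63 for Hdac8 with Hdac11. The lowest was -0.65 for Hdac2 with Hdac11.

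After the mean of each region and group was removed over all libraries, the members aligned differently. Hdac5 and Hdac11 deviated together (r = 0.53), and Hdac2 deviated against Hdac5 (r = -0.55), Hdac7 (-0.49) and Hdac11 (-0.42). The longest transcripts of Hdac7, Hdac5 and Hdac11 hold 60.2%, 59.8% and 57.4% GC, and that of Hdac2 holds 41.9%, with a median of 49.6% over 15122 genes. For each library a slope was taken, across those genes, of log2 CPM minus the regional mean on transcript GC content, in log2 units per 10 points of GC. It ran from -0.36 to 0.23. The deviations of Hdac5 followed this slope with r = 0.73 (0.59 to 0.83 within regions), Hdac11 with 0.59, Hdac7 with 0.48, Hdac4 with 0.45 and Hdac2 with -0.64 (-0.80 to -0.48). The r of Hdac9 was -0.01, of Hdac3 0.06 and of Hdac6 0.15. What the slope stems from was not tested. The closest genes by these deviations were Rabep1 (0.80) and Zc3h15 (0.78) for Hdac2, Gaa (0.81) and Cbarp (0.78) for Hdac11, Tnk2 (0.76) and Cep170b (0.76) for Hdac5, Nbeal2 (0.71) for Hdac7, Gabbr2 (0.67) and Trio (0.66) for Hdac4, and Prkca (0.67) and Col25a1 (0.66) for Hdac9. For Hdac6 they were Plppr3 (0.55) and Dcaf7 (0.54), for Hdac3 Snx32 (0.52) and Dtx3 (0.50), for Hdac1 Tns3 (0.52) and Pgd (0.52), and for Hdac8 Tmem87a (0.25) and Mrpl41 (0.24).

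**Figure D4:**
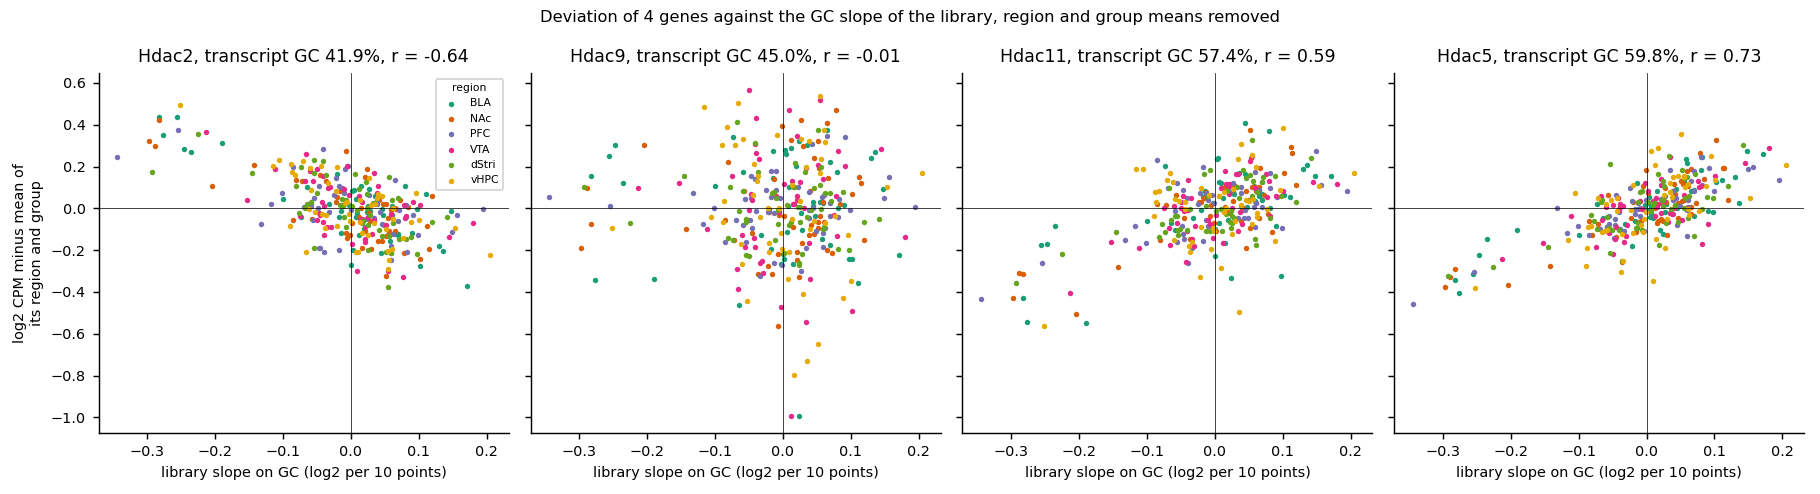
Log2 CPM of 4 genes minus the mean of their region and group (y axis) against the GC slope of the library (x axis, log2 per 10 points, same means removed) in the libraries used, coloured by region. Hdac2 falls and Hdac11 and Hdac5 rise along the slope (r = -0.64, 0.59 and 0.73), while Hdac9 is flat (r = -0.01).

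Whether heroin moved these genes was asked within each region, 24 h and 30 d mice apart, in 9 contrasts: H24 with S24 as reference; each of the other 30 d groups with SS as reference; HH with HS and with SH as reference; the interaction, (HH minus HS) minus (SH minus SS); the challenge, SH and HH against SS and HS; and the history, HS and HH against SS and SH. No member was called by edgeR in any of 540 tests, and DESeq2 called 0 as well. At an unadjusted p under 0.05 there were 19 tests, or 3.52%, of which 6 were higher and 13 lower, against 4.24% over all genes. By contrast the unadjusted background was 4.94% for H24 against S24 (2 of 60 member tests), 4.16% for SH against SS (3), 3.25% for HS against SS (1), 4.36% for HH against SS (2), 3.78% for HH against HS (3), 4.62% for HH against SH (0), 3.25% for the interaction (3), 4.99% for the challenge (4) and 4.82% for the history (1). The members' shares were near this background.

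At the adjusted threshold the background was itself at or near 0. In SH against SS it was 0.00506% of genes in NAc and 0.015% in PFC, in HH against HS 0.025% in PFC, and in the challenge 0.00506% in NAc, 0.235% in PFC and 0.00513% in dStri. It was 0% in every other region and contrast of the 9.

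The intervals were narrow. In the 480 tests other than the interaction, 95% intervals all lay within a log2 difference of 1 on either side, and 465 lay within 0.5. The farthest bound was 0.68, or 1.61-fold, for Hdac7. For Hdac3 no bound went past 0.27 (1.20-fold), for Hdac5 past 0.27 (1.21-fold), for Hdac2 past 0.29 (1.22-fold) or for Hdac4 past 0.31 (1.24-fold). Hdac9 reached 0.56. The biological coefficient of variation, edgeR's estimate of spread between mice, had medians of 8.98% for Hdac3 and 21.7% for Hdac7 over regions, and 17.9% for the median gene.

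**Figure D5:**
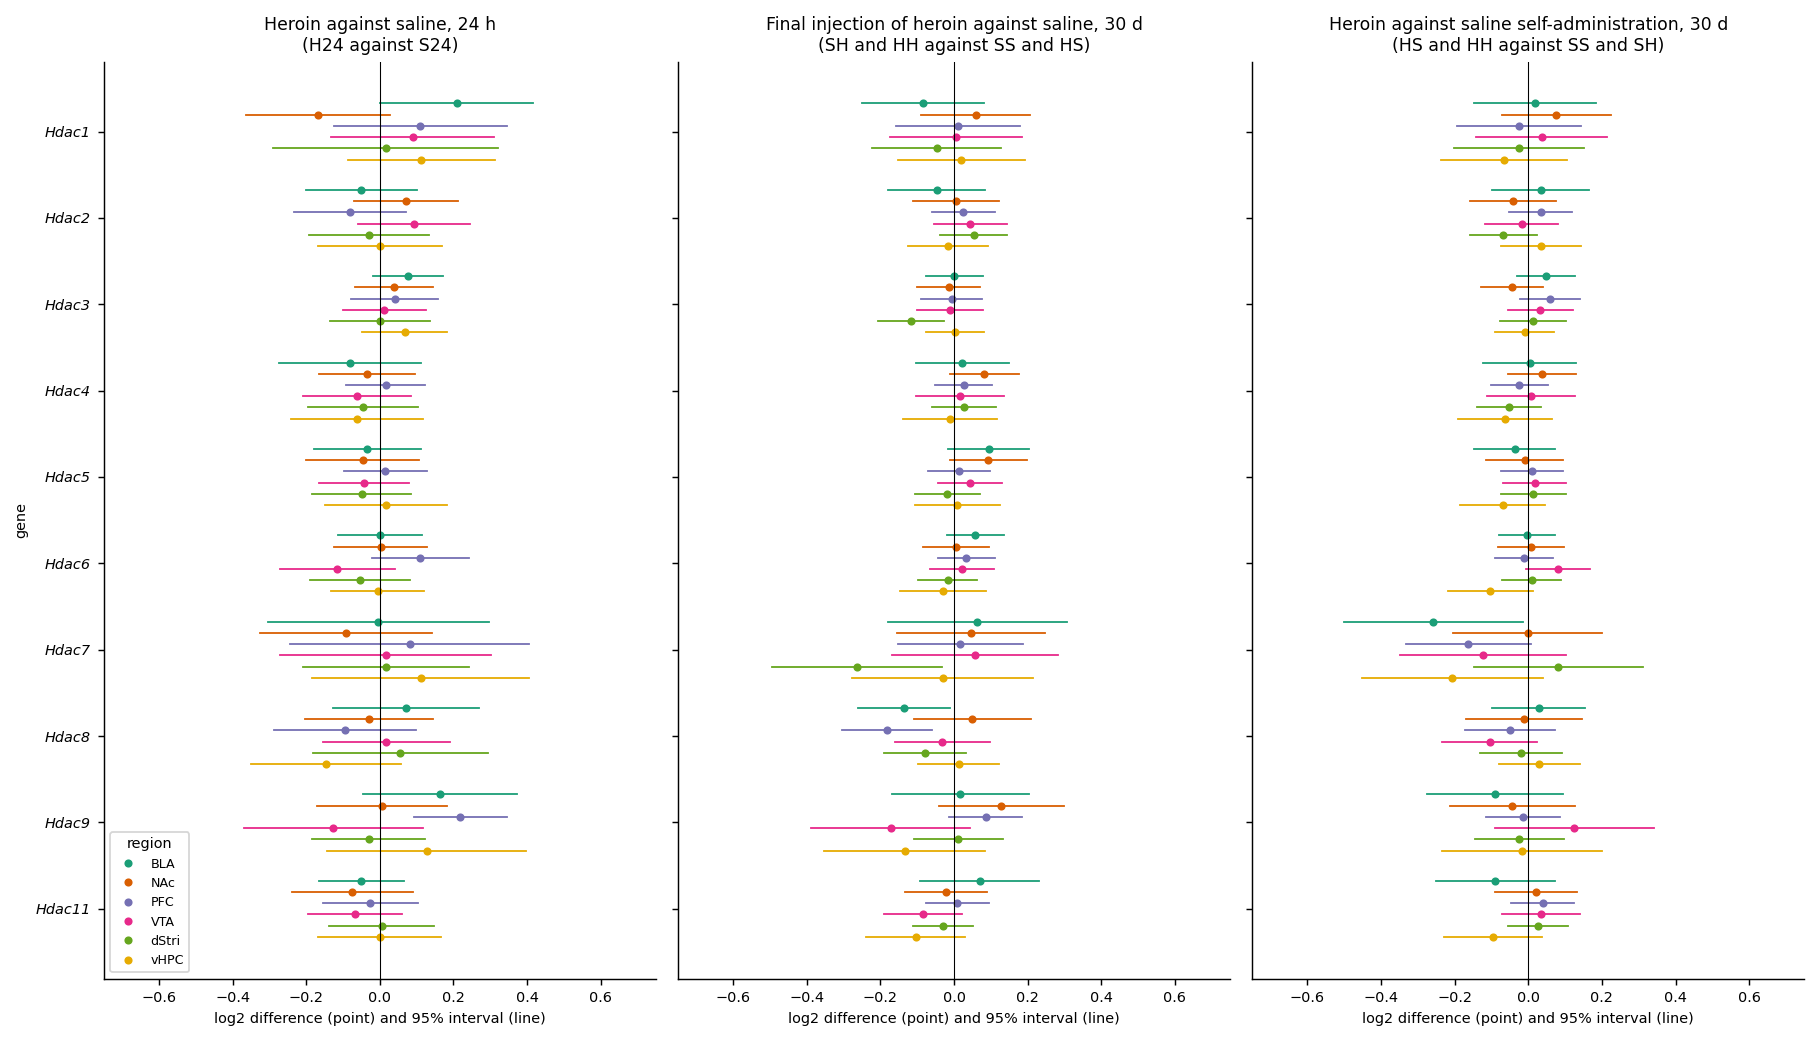
Log2 difference (points) with 95% intervals (lines) of each gene in each region (colours) for heroin against saline at 24 h, the challenge at 30 d and the history at 30 d. Intervals cross or lie near 0, the widest are those of Hdac7, and Hdac9 in PFC at 24 h stands at 0.22.

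The member tests with the smallest p were as follows, none of them called. Hdac9 in PFC ran from 67.6 to 81.1 CPM (median 75.7) in S24 mice and from 69.4 to 110 CPM (median 89.6) in H24 mice. The groups overlap, and 10 of 11 H24 libraries lay above the S24 mean. The log2 difference was 0.22 ± 0.062 with an edgeR adjusted p of 1.00. Hdac8 in PFC ran from 9.67 to 11.6 CPM (median 10.5) in SS, 9.45 to 12.8 (median 10.5) in HS, 8.11 to 11.2 (median 9.87) in SH and 7.69 to 11.1 (median 9.05) in HH mice. All 4 ranges overlap. Its challenge difference of -0.18 ± 0.060 had the smallest adjusted p of any member test (edgeR adjusted p = 0.291), with 14 of 16 challenged mice below the mean of the others. Hdac8 made up 6 of the 19 tests, each a lower value after heroin challenge, in PFC, BLA and dStri, in contrasts that share mice.

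Hdac3 in dStri ran from 58.02 to 69.3 CPM (median 63.8) in SS, 59.2 to 76.3 (62.2) in HS, 54.4 to 69.3 (57.9) in SH and 52.7 to 68.5 (59.98) in HH mice. The ranges overlap. Its challenge difference was -0.12 ± 0.044 (edgeR adjusted p = 0.537), with 14 of 16 below the mean of the others. Hdac7 in VTA ran from 6.69 to 16.6 CPM (median 12.6) in SS and from 7.25 to 11.6 (median 10.0) in HS mice, a difference of -0.37 ± 0.155 (edgeR adjusted p = 1.00) and the largest outside the interaction. All 8 HS libraries lay below the SS mean. Unadjusted p under 0.05 also came from Hdac1 in BLA (H24 against S24, 0.21), Hdac2 in VTA (SH against SS, 0.15), Hdac11 in vHPC (HH against SS, -0.20), Hdac3 in dStri (HH against HS, -0.14), Hdac9 in PFC (HH against HS, 0.14) and Hdac7 in dStri (challenge, -0.26) and BLA (history, -0.26), as log2 differences. The 3 interactions were all in VTA: 0.49 for Hdac7, 0.25 for Hdac4 and -0.21 for Hdac2. The 30 d mice came in 2 sets of sample codes, and 51.7% of 480 member differences had the same direction in both. Of the differences named, that of Hdac11 was 0.04 in the first set alone. Whether heroin effects differ between regions was tested with 1 term per region. Of 10 members, 0 passed for the effect at 24 h (smallest unadjusted p = 0.181 by edgeR; background 0.0128%), 0 for the challenge (0.0676; 0.0366%) and 0 for the history (0.0790; 0.0569%). None was under 0.05 unadjusted.

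The pathway around the members was read from 10 lists with 125 genes, of which 1 MEF2 factor did not pass the filter. Sirtuins, Sin3, NuRD and CoREST subunits, acetyltransferases, bromodomain readers, MEF2 factors and the kinases and 14-3-3 proteins of class IIa export had 0 calls by edgeR over the 9 contrasts and 6 regions. At an unadjusted p under 0.05 were 11.7% of the tests of MEF2 factors and 7.07% of those of the kinases and 14-3-3 proteins. The other lists named had 1.85% to 5.42%, and all genes 4.24%. The smallest p values of these lists belonged to Brpf3, a bromodomain reader, lower by a log2 difference of -0.39 ± 0.077 in NAc of H24 mice (edgeR adjusted p = 0.112), to Ywhag, a 14-3-3 protein, there too (-0.33 ± 0.077, 0.211), and to Mbd3 of NuRD in NAc of HH against SS mice (0.61 ± 0.155, 0.999). Mef2c, the partner of class IIa enzymes, had -0.48 ± 0.121 in VTA in HH against SS (edgeR adjusted p = 1.00). Sirt6 (-0.29, NAc), Sap130 (-0.39, vHPC), Rcor1 (0.12, PFC) and Kat6a (-0.18, NAc) led other lists. Immediate early genes, which calcium signalling induces, were called 16 times of 1133 tests, all higher, after the heroin challenge in PFC and, for Nr4a3, dStri. In PFC the challenge difference was 0.37 ± 0.053 for Dusp6 (edgeR adjusted p = 0.000175) and 0.36 ± 0.055 for Fosl2 (0.000296), beside -0.18 for Hdac8 and none called among the members.

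By region, most genes of several lists were lower in VTA. There 11 of 15 Sin3, 8 of 10 CoREST, 7 of 11 NuRD and 12 of 16 bromodomain genes fell below the mean of the other regions in saline mice, and 2, 1, 4 and 2 rose. Of the acetyltransferases 9 of 14 fell and 4 rose, of the kinases and 14-3-3 proteins 14 of 22 and 7, of the immediate early genes 17 of 21 and 1, and of the MEF2 factors 3 of 3. Sirtuins were even, with 3 lower and 3 higher of 7. Of the members 4 rose and 2 fell, and no difference between a list and the members was tested. Among all genes 37.5% were lower in VTA. Tbl1xr1, an NCoR subunit, had 206 ± 21.6 CPM in vHPC and 101.8 ± 8.09 in VTA (SD, n = 16). Mta3 of NuRD went the other way, with 144.6 ± 11.5 CPM in VTA and 35.6 ± 4.94 in dStri. Mef2c had 1106 ± 64.4 CPM in PFC and 37.8 ± 61.6 in VTA, where its SD exceeded the mean. In NAc and dStri, where Hdac4 was low too, Mef2c did not pass against the mean of the other regions (log2 difference -0.04, edgeR adjusted p = 0.831, and -0.25, 0.145). That mean includes VTA, where Mef2c was low, so it does not show how NAc and dStri stood against PFC. Sirt2, a class III deacetylase, resembled Hdac11 in peaking in VTA (125 ± 13.6 CPM against 61.9 ± 10.9 in PFC), as did Kat2b among the acetyltransferases (64.2 ± 8.07 against 23.0 ± 4.86). In the remaining lists the widest ranges were those of Brms1, Rcor2, Baz1a, Camk2a and Egr2, at 1.99, 1.58, 3.55, 5.53 and 6.77 on the log2 scale. These are ranges of the differences from the mean of the other regions.

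The saline mice of 24 h and of 30 d differed in Hdac4, a comparison made after the values were seen. In dStri it ran from 49.1 to 70.5 CPM (median 56.6) in S24 and from 71.9 to 89.01 (median 82.2) in SS mice. In NAc it ran from 56.8 to 70.2 CPM (median 65.6) in S24 and from 74.8 to 91.6 (median 86.6) in SS mice. Neither pair of ranges overlaps. The log2 differences were 0.53 ± 0.067 in dStri (edgeR adjusted p = 4.03e-05), 0.39 ± 0.063 in NAc (0.00125), 0.33 ± 0.058 in PFC (0.00236) and 0.39 ± 0.102 in vHPC (0.0328), with 8 of 8 SS libraries above the S24 mean in each. The PFC and vHPC ranges overlap. In BLA (0.17 ± 0.112, edgeR adjusted p = 0.649) and VTA (0.19 ± 0.077, 0.410) it did not pass. These 4 calls were the only ones among the 60 member tests, against a background of 5.66% in vHPC, 2.6% in dStri, 2.03% in PFC, 1.56% in BLA, 1.33% in NAc and 1.13% in VTA.

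Heroin mice, which share no animal with that comparison, gave the same regions. HS against H24 mice differed in Hdac4 by 0.56 ± 0.068 in dStri (edgeR adjusted p = 5.99e-06), 0.44 ± 0.063 in NAc (8.96e-05), 0.31 ± 0.047 in PFC (0.000201) and 0.38 ± 0.078 in vHPC (0.0262). In dStri the H24 libraries ran from 45.5 to 67.6 CPM (median 56.9) and the HS libraries from 75.8 to 92.2 (median 80.7). In NAc they ran from 52.98 to 74.7 (median 61.4) and from 77.6 to 94.5 (median 83.8), again with no overlap. BLA (0.26 ± 0.078, edgeR adjusted p = 0.0831) and VTA (0.13 ± 0.079, 0.468) again did not pass. Also called were Hdac5 in dStri, higher by 0.27 ± 0.062 (edgeR adjusted p = 0.00700), and Hdac9 in PFC, lower with a log2 difference of -0.27 ± 0.068 (0.0241), so that 5 of 60 member tests were higher and 1 lower. With the library GC slope in the fit, the Hdac5 difference was 0.16 (edgeR adjusted p = 0.0824) and that of Hdac4 in vHPC between SS and S24 had an adjusted p of 0.0549, so both calls were lost. The background was 6.72% in dStri, 3.52% in PFC, 2.86% in NAc, 2.19% in VTA, 1.67% in BLA and 0.575% in vHPC. The 30 d mice differ from the 24 h mice in withdrawal time, age, the challenge injection, the 2 h test and, for every mouse with a code, the set of sample codes, and these cannot be told apart.

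Other genes moved between the same groups, and their part in the Hdac4 difference was not tested. Over all genes and regions 2.37% of tests were called in SS against S24 and 2.93% in HS against H24. Immediate early genes were called 28 times higher and 0 times lower in SS against S24 (21 genes in 6 regions), and 29 times higher and 1 time lower in HS against H24. The 5 blood markers were called 0 times higher and 16 times lower of 30 in the saline mice, and 23 times lower in the heroin mice. Endothelial and mural markers had 3 calls higher and 5 lower of 60, and 0 and 11, and oligodendrocyte markers 6 and 11 lower of 72. Choroid plexus markers had 3 calls higher and 0 lower of 34 in SS against S24, all in vHPC (Ttr 5.56, Clic6 4.25 and Folr1 4.23 on the log2 scale). Their sum there had a median of 49.8 CPM (14.1 to 170) in S24 and 92.1 CPM (19.96 to 9163) in SS mice. In HS against H24 they had 1 call higher of 36, in dStri. Microglia markers had 1 call higher and 4 lower of 48 in the saline mice, in vHPC, PFC and dStri, and 1 higher in the heroin mice. Excitatory neuron markers had 1 call higher and 2 lower of 56, and their sums overlapped between the groups: they came to a median of 697 CPM (441 to 1228) in S24 and 712 CPM (449 to 887) in SS mice in dStri, to 835 CPM (723 to 989) and 776 CPM (526.3 to 1232) in NAc, to 3543 CPM (2503 to 4240) and 3131 CPM (2948 to 4248) in PFC, and to 3733 CPM (2571 to 4975) and 2967 CPM (2347 to 4035) in vHPC. The GC slope had medians of -0.0074 in S24 and 0.031 in SS mice in dStri, and of 0.052 and 0.025 in NAc. With the slope in the fit, Hdac4 differed by 0.52 in dStri. MEF2 factors, which class IIa enzymes bind, had 0 calls in 18 tests of either comparison, and the kinase and 14-3-3 list (22 genes) had 10 calls higher and 4 lower in SS against S24. In that list Camk1g, named here for its small p after its values were seen and known as a calcium/calmodulin-dependent kinase, was higher by 0.79 ± 0.099 in dStri (edgeR adjusted p = 4.03e-05) and by 0.82 ± 0.086 in HS against H24 mice there (7.83e-07).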

How the data were processed

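RNA was extracted from 6 brain regions of 51 mice and sequenced as strand-specific, rRNA-depleted paired reads, per the labels' protocols. The authors deposited whole-number read counts per gene, not normalized. The submitters' processing notes name FastQC, HISAT2, SAMtools, HTSeq and the mm10 build, without versions or settings; an aligner's handling of reads shared by near-identical genes is not given in the sources used here. Of 305 libraries, the 1 under 5 M counts (M, 1e6) was left out. The members, the related lists and the tests were chosen with earlier results of these data known.

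Counts were fitted in R 4.3.3 with edgeR 4.0.16 (limma 3.58.1; TMM; filterByExpr with a minimum count of 10; quasi-likelihood F tests; Benjamini-Hochberg adjustment over all genes per region and contrast, threshold 0.05). Treatment groups were fitted within a region, 24 h and 30 d mice apart. Regions were compared with the mouse as a block, since the same mouse gave every region. SE is the log2 difference over the root of F, and intervals are 95%. CPM used TMM effective library sizes, and log2 CPM for correlations a prior count of 1. The fits were tested on simulated counts. Libraries that stand apart (15) lay over 4 scaled median absolute deviations below their region's median rank correlation. Alternatives were RLE size factors, DESeq2 1.42.0, no filter, those libraries left out, the low-count library kept, code sets, other mice and no block. The library GC slope and the comparison of 30 d with 24 h mice were added after seeing the data. Named genes were all members, the 2 genes most like each, and from each related list the gene with the smallest p, the widest regional range and up to 4 called per contrast. Some genes that this rule names, and a list that rests on 1 of them, are not reported here.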

Additional observations from a re-analysis of the deposited data

Results flagged for a closer look

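Of 300 sets of 7 to 10 libraries (1 gene, region and group), 18 held a library whose gap to the nearest other passed Dixon's 95% critical value. Chance flags about 1 in 20 sets. The 4 low Hdac11 values and 2 of the 3 high Hdac2 values came from 4 libraries. In NAc, SH mouse 4 had 117.4 CPM of Hdac11 (the others 154.9 to 187) and 111.3 CPM of Hdac2 (76.7 to 91.6). In vHPC, S24 mouse 46 had 101.2 CPM of Hdac11 (146.99 to 178) and 103.6 CPM of Hdac2 (61.98 to 77.1). PFC of SH mouse 29 had 110 CPM of Hdac11 (147.7 to 167), and NAc of S24 mouse 37 had 116.2 CPM of Hdac11 (158 to 189) and 7.56 CPM of Hdac1 (9.97 to 12.1). The GC slopes of these 4 libraries, each the lowest of its region and group, were -0.30, -0.30, -0.36 and -0.17. Their part in these values was not tested.

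The VTA library of HH mouse 25 was the lowest of its group in Hdac9, at 29.8 CPM (44.6 to 47.9), and the highest in Hdac3, at 90.7 CPM (71.8 to 78.3). Hdac9 was also high in VTA of SS mouse 22 (63.9 CPM, the others 39.8 to 45.8) and PFC of HH mouse 21 (99.99 CPM, 72.2 to 85.1). HS mouse 14 was high in Hdac4 in BLA (161 CPM, 113.3 to 134.2) and in Hdac11 in NAc (210 CPM, 141.8 to 174). Single high values were Hdac2 in dStri of HH mouse 18 (116.3 CPM; GC slope -0.041), Hdac4 in VTA of HS mouse 2 (88.6 CPM), Hdac7 in dStri of SH mouse 24 (12.1 CPM) and Hdac8 in BLA of SH mouse 19 (13.8 CPM). Hdac3 in NAc of S24 mouse 49 was low (62.3 CPM).

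In HH against HS, Hdac9 was higher in PFC in every HH library (log2 difference 0.14) and lower in VTA in every HH library (-0.20), relative to the HS mean. That pair of regions was not tested on its own.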

How the results depend on the processing

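No called region difference of a member turned direction under any alternative run, and treatment calls of members stayed at 0 under each one. Of the 67 region differences not called, 40 changed sign under at least 1 alternative, with values of at most 0.18 on either side of 0 on the log2 scale. With all 51 mice 1 of them was called with the other sign: Hdac3, BLA against NAc, at 0.056 (edgeR adjusted p = 0.0110), where saline mice gave -0.0033. Of the 60 comparisons with the mean of the other regions and the 150 pairs, 41 and 68% were called. These became 49 and 84.7% with all 51 mice, 30 and 53.3% with S24 mice, 35 and 61.3% with SS mice, 42 and 65.3% with RLE factors, 38 and 62.7% with no filter, and 41 and 67.3% without the libraries that stand apart. With no replicate block for the mouse they were 41 and 66%. The 1 treatment value that turned was Hdac11 in vHPC, HH against SS, 0.038 in code set 1 alone; the cause was not tested.

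Calls among all genes moved more. DESeq2 called 31 genes (0.0152% of those with an adjusted p) in H24 against S24, where edgeR called 0. It called 19 (0.00917%; edgeR 4) in SH against SS, 8 (0.00354%; 0) in HH against SS, 18 (0.00860%; 5) in HH against HS, 3 (0.00133%; 0) in HH against SH, 1 (0.000443%; 0) in the interaction and 2 (0.000885%; 0) in the history. In the challenge it called 0.0544%, which is 2.27 times the 49 genes of edgeR. With no filter the counts were 3 (0.00139%), 7 (0.00310%), 2 (0.000885%) and 9 (0.00398%) in the first 4 of these contrasts and 9 (0.00398%) in the history, and the shares called by region fell to 28.9% of pairs and 29.6% against the mean. Without the libraries that stand apart they were 37 (0.0334%) in H24 against S24, 8 (0.00671%) in SH against SS and 77 (0.0646%; edgeR 49 with them) in the challenge, and genes whose effect differed between regions went from 3 to 0 (0%) at 24 h and from 14 to 31 (0.125%) for the history. With the GC slope in the fit, 18 (0.0153%) were called in SH against SS, 1 (0.000849%) in HH against SS and 14 (0.0119%) in HH against HS. Between 30 d and 24 h mice DESeq2 called 4.37% (edgeR 2.37%) in saline mice and 5.05% (edgeR 2.93%) in heroin mice. The cause was not tested. Per kb of the longest transcript, levels were 4.90 for Hdac1, 24.9 for Hdac2, 20.3 for Hdac3, 12.3 for Hdac4, 30.9 for Hdac5, 8.90 for Hdac6, 2.17 for Hdac7, 5.43 for Hdac8, 6.42 for Hdac9 and 68.4 for Hdac11, since that length is shorter than all exons together.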
